A study of Mus musculus with 12 samples.

Results

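Clock output genes carry the timing of the circadian clock into the rest of the transcriptome. The 8 described here were named by symbol: the PAR bZIP activators Dbp, Tef and Hlf, the bZIP repressor Nfil3, the bHLH repressors Bhlhe40 and Bhlhe41, the repressor Ciart and the deubiquitinase gene Usp2. They are 8 of the 52636 gene identifiers in the count files, and all 8 passed the filter on low counts. Liver RNA was sequenced from C57BL/6 mice aged 12 weeks in 12 libraries, 3 for each of 4 groups. The groups were p53 wild type on the normal diet (wt_normal), p53 knockout on the normal diet (ko_normal), p53 wild type on HFD, a high-fat diet (wt_HFD), and p53 knockout on HFD (ko_HFD). The strain and the age were shared by all groups. The sources used here do not name the knockout allele or the cells in which it acts, nor how long the mice were on HFD. They also give neither the clock time of tissue collection nor whether the mice were fed or fasted, and the part of these in the results was not tested. Replicates are not said to be separate animals, so each p-value reflects only how far these libraries spread, which may be technical.

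In the mammalian clock, CLOCK and its partner BMAL1, encoded by Arntl, bind E-boxes and switch on the Per, Cry and Nr1d genes, whose products feed back on them. Dbp, Tef and Hlf are activated downstream of this loop and bind D-boxes, to which NFIL3 binds as a repressor, and NR1D1 in turn represses Nfil3 and Arntl. In the liver the PAR bZIP factors drive rhythmic genes of drug and lipid metabolism, among them cytochrome P450 genes, and levels of these transcripts swing widely over a day.

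Total counts ran from 15465187 to 20492567 per library, and levels are given as CPM, counts scaled to a common library size, with TMM factors. Trp53, the gene encoding p53, had 5 to 28 counts in the ko libraries and 142 to 432 in the wt libraries. All 8 hepatocyte markers checked were detected in every group, and they took 4.59% to 6.31% of counts in the wt groups and 7.38% to 8.65% in the ko groups. The list did not move as 1: from wt_normal to ko_normal the mean of Alb went from 23210 to 42740 CPM and that of Apoa1 from 10610 to 17140 CPM, while Cps1 went from 1326 to 949 CPM and Tat from 1670 to 901 CPM. EdgeR called none of them in this comparison. Averaged over both diets it called 1 of the 8 higher in ko, and 1 of 7 endothelial markers lower, where 114 of 14433 genes were called higher and 54 lower. Averaged over both genotypes it called 1 of the 8 lower on HFD, as were 66 of all genes. In bulk tissue, fewer cells of a type and less RNA per cell cannot be told apart. Library wt_normal replicate 2 stood apart, with 1.05% of its counts in 8 skeletal muscle markers against at most 0.00125% elsewhere. It also had 0.0163% in 5 B cell markers against at most 0.00118% elsewhere. Libraries ko_normal replicate 1 and ko_HFD replicate 2 were highest in mitochondrially encoded counts, at 14.63% and 10.3%, where the remaining libraries had 4.18% to 7.22%. Over 7 endothelial markers, wt_normal stood above the other groups, at 0.0223% to 0.0291% of counts while ko_normal had 0.0096% to 0.0142%, wt_HFD had 0.011% to 0.0185% and ko_HFD had 0.00791% to 0.015%. Between wt_normal and wt_HFD, 4 erythroid markers (0.0387% to 0.0915% against 0.0158% to 0.0224%) and 5 neutrophil markers (0.000242% to 0.000372% against 0.000508% to 0.00159%, 1 of the 5 at 0 in wt_HFD) were also apart. Between wt_normal and ko_normal, 7 stellate cell markers were apart (0.0152% to 0.0887% against 0.00978% to 0.0104%), and the 0.0887% was that of wt_normal replicate 2. The fitted change was negative for all 7 but uneven. The mean of Des went from 190.8 to 6.34 CPM, that of Lrat from 5.99 to 5.71 CPM and that of Reln from 17.6 to 17.1 CPM. Between wt_HFD and ko_HFD, 6 T and NK cell markers (0.00031% to 0.000384% against 0.000612% to 0.000841%) and 5 B cell markers (0.000418% to 0.000662% against 0.000699% to 0.00106%) were apart. The part of these differences in the results below was not tested.

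The promoters of 7 of the 8 genes, the 250 bases before and the 50 bases after an annotated start, were matched by symbol in RefSeq on build GRCm38.p6, with 2 start sites for Tef. Both strands were searched for 4 motifs: the E-box (CACGTG), the D-box (TTATGTAA or TTACGTAA), the ROR element and the cAMP response element (TGACGTCA). An E-box was present in 3 of the 7 genes. Ciart (chr3:95882179-95882478, minus strand) held 3 E-boxes, starting 116, 58 and 44 bases before the start. Bhlhe41 (chr6:145865371-145865670, minus strand) held 1 at 153 bases. Tef held 1 in each promoter, 127 bases before the upstream start (chr15:81802423-81802722, plus strand) and 138 before the downstream one (chr15:81811164-81811463, plus strand). Of all 32851 RefSeq promoters of this length, 7.15% held an E-box. These are shown in full because the E-box is the element the clock activators bind, with Dbp (chr7:45704997-45705296, plus strand) beside them as the member whose level differed most between the groups and whose window held none of the 4 motifs. Capitals mark the E-boxes.
Ciart: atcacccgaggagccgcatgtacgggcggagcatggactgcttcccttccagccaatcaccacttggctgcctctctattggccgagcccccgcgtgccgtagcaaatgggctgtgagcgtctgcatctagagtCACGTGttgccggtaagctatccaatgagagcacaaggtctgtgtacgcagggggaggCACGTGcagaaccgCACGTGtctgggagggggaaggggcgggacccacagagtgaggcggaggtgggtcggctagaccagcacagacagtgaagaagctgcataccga
Bhlhe41: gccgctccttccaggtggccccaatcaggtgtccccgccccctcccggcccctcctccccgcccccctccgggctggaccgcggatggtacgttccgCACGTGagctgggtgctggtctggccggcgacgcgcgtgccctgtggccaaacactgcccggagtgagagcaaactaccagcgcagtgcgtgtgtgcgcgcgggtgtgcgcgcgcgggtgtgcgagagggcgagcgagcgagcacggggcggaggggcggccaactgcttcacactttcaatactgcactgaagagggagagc
Tef, upstream start: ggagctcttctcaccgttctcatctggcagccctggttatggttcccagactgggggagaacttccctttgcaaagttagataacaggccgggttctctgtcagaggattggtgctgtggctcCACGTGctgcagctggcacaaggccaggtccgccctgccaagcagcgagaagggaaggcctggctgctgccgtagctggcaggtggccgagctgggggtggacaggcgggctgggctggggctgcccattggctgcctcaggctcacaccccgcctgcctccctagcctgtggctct
Tef, downstream start: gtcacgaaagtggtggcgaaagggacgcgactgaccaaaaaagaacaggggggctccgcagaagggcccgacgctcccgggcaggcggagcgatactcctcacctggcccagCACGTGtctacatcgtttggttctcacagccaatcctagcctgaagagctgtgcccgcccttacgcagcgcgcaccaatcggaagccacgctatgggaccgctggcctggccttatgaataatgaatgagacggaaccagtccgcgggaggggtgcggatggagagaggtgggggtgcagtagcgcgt
Dbp: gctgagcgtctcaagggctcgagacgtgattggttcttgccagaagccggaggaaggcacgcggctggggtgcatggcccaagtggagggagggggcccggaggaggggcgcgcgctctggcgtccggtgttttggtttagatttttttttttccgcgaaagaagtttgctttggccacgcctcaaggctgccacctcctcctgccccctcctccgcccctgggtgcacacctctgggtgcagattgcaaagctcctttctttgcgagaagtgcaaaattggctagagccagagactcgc
Hlf held a cAMP response element, as did 1.79% of all promoters, and Nfil3 and Usp2 held none of the 4 motifs. No member's window held a D-box, present in 1.06% of all promoters, or a ROR element, present in 0.219%. A match describes letters only. Sites further away, in introns for example, were not searched.

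Dbp encodes the D-box binding protein named for the albumin promoter, and it lies on the plus strand at chr7:45705088-45710203 (GENCODE M21, GRCm38). Its level was 2.15, 13.5 and 2.04 CPM in wt_normal replicates 1, 2 and 3, and 190.5, 97.3 and 107 CPM in ko_normal. In wt_HFD it was 83.6, 59.1 and 6.52 CPM, and in ko_HFD 74.6, 125 and 112 CPM. The wt_normal libraries had 35 to 284 counts of Dbp and the ko_normal libraries 1950 to 3288, so the gap was far wider than counting error. No ko library was below 74.6 CPM on either diet, whereas the wt_HFD libraries were split, with replicate 3 at a level between those of the wt_normal libraries. Group means were 5.91 ± 6.6 CPM in wt_normal, 131.6 ± 51.2 in ko_normal, 49.7 ± 39.4 in wt_HFD and 103.8 ± 26.1 in ko_HFD (SD, n = 3). Ordered by these means, each group overlapped the next, wt_normal and wt_HFD included.

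Dbp shares 539 bases, 18% of its exon bases, with the antisense gene Sphk2, and the sources used here do not say whether counting used strand. Sphk2 had 954 counts in the library where Dbp had its lowest count of 35, and 1037 where Dbp had its highest of 3288. Over all libraries Sphk2 ran from 876 to 1516 counts. The spread of Dbp was therefore not mirrored in its neighbour. For Bhlhe41, 19% of the exon bases are shared with the antisense model Gm43909, which had at most 5 counts in any library.

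Tef, the thyrotroph embryonic factor (chr15:81802421-81826863, plus strand), binds the same D-boxes. Tef was at 60.2, 128 and 51.7 CPM in wt_normal and at 289.5, 151 and 209 CPM in ko_normal. It was at 233, 147 and 63.9 CPM in wt_HFD and at 245, 219 and 152 CPM in ko_HFD. As for Dbp, wt_HFD replicate 3 lay among the wt_normal libraries, and the ko groups lay above all of wt_normal. The range was much narrower, since the highest Tef level was 5.6 times the lowest against 93.2 times for Dbp.

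Hlf, the hepatic leukemia factor (chr11:90336536-90390895, minus strand), was at 25.1, 19.9 and 25.5 CPM in wt_normal and at 39.7, 47.1 and 35.4 CPM in ko_normal. It was at 34.5, 20 and 18.4 CPM in wt_HFD and at 34.4, 46.0 and 39.0 CPM in ko_HFD. Hlf was thus near the same level on both diets within a genotype, and 5 of the 6 wt libraries lay below all 6 ko libraries. The exception was wt_HFD replicate 1, which lay just above ko_HFD replicate 1.

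Nfil3, the D-box repressor also called E4BP4 (chr13:52967209-52981073, minus strand), ran the other way. Its level was 57.1, 44.3 and 67.8 CPM in wt_normal and 23.1, 44.0 and 43.4 CPM in ko_normal. It was 31.7, 52.1 and 61.4 CPM in wt_HFD and 35.6, 25.0 and 21.6 CPM in ko_HFD. The normal diet groups were separated by the narrow gap between 44.3 and 44.0 CPM, and the HFD groups overlapped through wt_HFD replicate 1.

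Because NFIL3 and the PAR bZIP factors bind the same element, the log2 CPM of Dbp minus that of Nfil3 was taken in each library, as a description. It was -4.66, -1.70 and -4.98 in wt_normal, 3.04, 1.14 and 1.30 in ko_normal, 1.40, 0.18 and -3.21 in wt_HFD, and 1.07, 2.31 and 2.37 in ko_HFD. The difference was at or below -1.70 in the wt_normal libraries and wt_HFD replicate 3, and at or above 0.18 in the other 8 libraries. Per kilobase of exon, the group mean level of Nfil3 in wt_normal was 27.8 CPM and that of Dbp 1.97 CPM, while in ko_normal they were 18.2 and 44.0 CPM.

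Bhlhe40 and Bhlhe41, also called DEC1 and DEC2, encode E-box binding repressors that compete with CLOCK and BMAL1. Bhlhe40 (chr6:108660629-108666925, plus strand) was at 8.86, 19.6 and 10.3 CPM in wt_normal and at 44.3, 44.9 and 33.2 CPM in ko_normal. It was at 27.4, 69.6 and 29.9 CPM in wt_HFD and at 56.6, 27.6 and 73.1 CPM in ko_HFD. All 9 libraries of the other groups lay above the highest wt_normal library, wt_HFD replicate 3 included.

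Bhlhe41 (chr6:145858243-145865558, minus strand) was the least abundant member per kilobase of exon, at a mean of 0.879 CPM over the 12 libraries. Its level was 0.554, 2.81 and 0.715 CPM in wt_normal, with 9 to 59 counts, and 14.8, 9.73 and 6.16 CPM in ko_normal. It was 4.39, 9.74 and 4.59 CPM in wt_HFD and 3.62, 7.02 and 6.77 CPM in ko_HFD. The wt_normal libraries were again below all 9 others.

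Ciart, also called Chrono, encodes a repressor of CLOCK and BMAL1 activity (chr3:95878503-95882251, minus strand). It was at 0.492, 5.33 and 3.47 CPM in wt_normal, with 8 to 112 counts, and at 49.7, 8.19 and 16.8 CPM in ko_normal. It was at 18.1, 12.1 and 1.36 CPM in wt_HFD and at 20.1, 23.5 and 22.1 CPM in ko_HFD. The ko_HFD libraries were close together (21.9 ± 1.71 CPM, SD, n = 3), while those of ko_normal spread over a wide range (24.9 ± 21.9 CPM).

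Usp2 encodes a ubiquitin-specific protease that acts on clock proteins, and it lies at chr9:44067021-44095627 on the plus strand. It was at 8.06, 31.1 and 10.8 CPM in wt_normal and at 55.6, 22.8 and 26.3 CPM in ko_normal. It was at 55.9, 29.6 and 4.53 CPM in wt_HFD and at 88.7, 35.5 and 33.9 CPM in ko_HFD. Every pair of groups that differed in 1 factor overlapped in Usp2. Library wt_normal replicate 2, the one with muscle markers, held the highest level of its group for Usp2 and 5 other members and the lowest for Hlf and Nfil3.

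**Figure D1:**
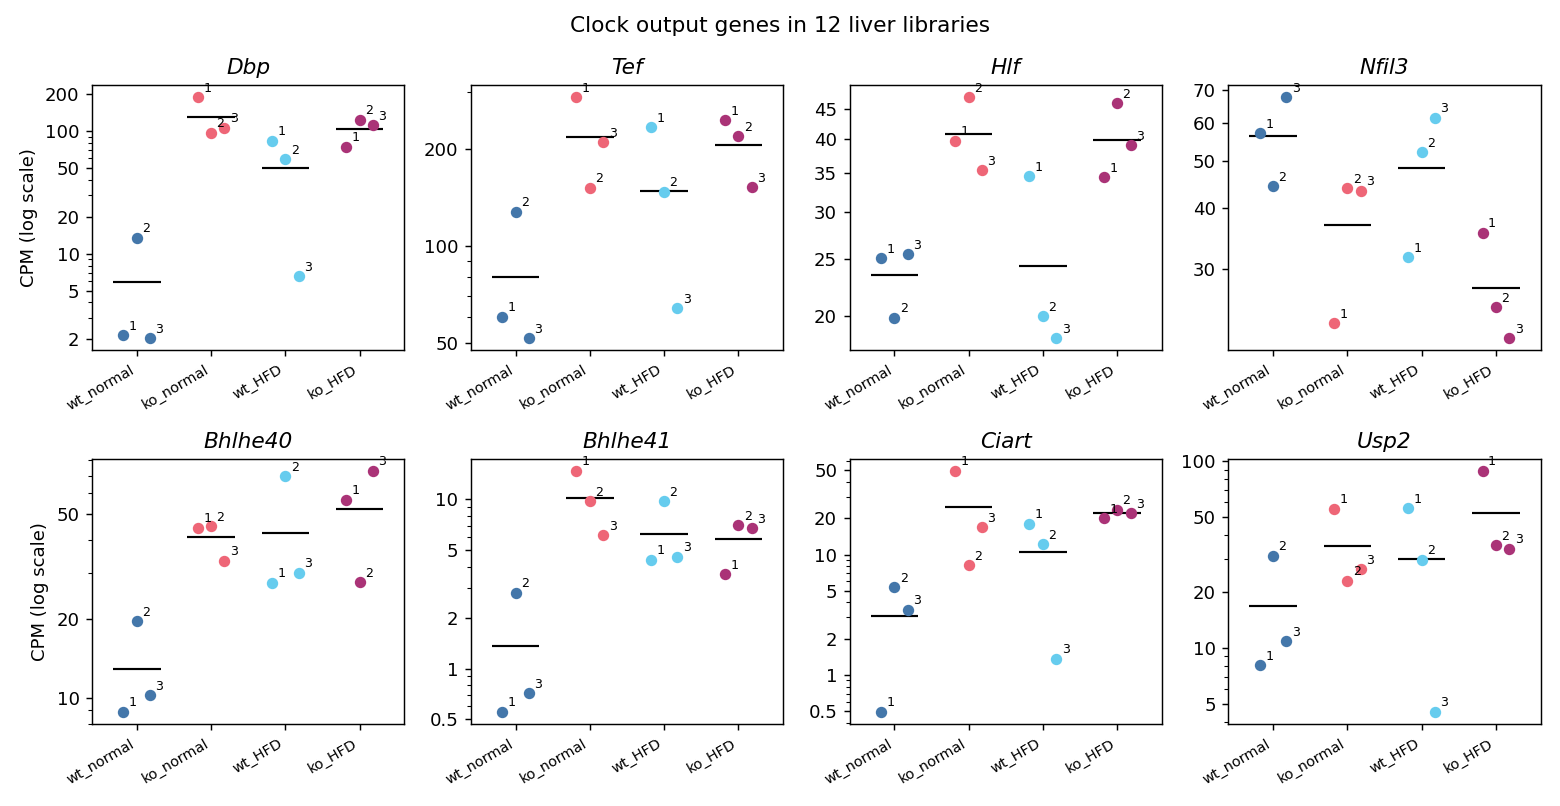
Level of each of the 8 genes in CPM on a log scale, by group, with each point a library labelled by its replicate number and each line the mean of 3 libraries. The mean is lowest in wt_normal for every gene but Nfil3, where it is highest, and wt_HFD replicate 3 lies within or below the wt_normal points for Dbp, Tef, Ciart and Usp2.

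The comparison of ko_normal with wt_normal asks what loss of p53 goes with on the normal diet. The levels of 7 of the 8 genes were higher on average in ko_normal and that of Nfil3 was lower, and the groups did not overlap for Dbp, Tef, Hlf, Bhlhe40, Bhlhe41 and Ciart, all higher, and for Nfil3, lower. Of all 14433 genes tested, 11.4% were higher and 11.4% lower without overlap. None of the 8 members passed edgeR's quasi-likelihood test at an adjusted p under 0.05, which 0.208% of all genes did. At an unadjusted p under 0.05 there were 6 members, against 15.1% of all genes, and the Wald test of DESeq2 called 5, against 3.69%. The median log2 change was 1.55 over the 8 members and -0.02 over all genes.

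On this diet the fitted log2 change of Dbp was 4.46 (SE 0.89, 95% interval 2.54 to 6.38, adjusted p = 0.0606), a 22.1-fold difference. It was 2.88 for Bhlhe41 (SE 0.58, adjusted p = 0.063) and 2.98 for Ciart (SE 0.88, adjusted p = 0.142). It was 1.66 for Bhlhe40 (SE 0.43, adjusted p = 0.111), 1.44 for Tef (SE 0.45, adjusted p = 0.157) and 0.79 for Hlf (SE 0.23, adjusted p = 0.139). These 6 were the members with an unadjusted p under 0.05, and DESeq2 called the same ones except Ciart. Nfil3 had -0.61 (SE 0.30, adjusted p = 0.36) and Usp2 1.06 (SE 0.73, adjusted p = 0.523). Without wt_normal replicate 2, the library with muscle markers, the change of Dbp was 5.99 (adjusted p = 0.0601) and that of Bhlhe41 4.01, which passed the test (adjusted p = 0.0271). Bhlhe41 was also called without wt_HFD replicate 2, and Dbp without wt_HFD replicate 3 (adjusted p = 0.023). Over the 12 fits with 1 library left out, edgeR called Bhlhe41 in 2, Dbp in 1 and each other member in 0. Adjusted p reached 0.17 for Bhlhe41 and 0.183 for Dbp.

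On HFD the fitted difference between genotypes was smaller in size for every member but Nfil3. Ciart was the only member whose groups did not overlap, higher in ko_HFD, where 6.7% of all genes were higher and 6.85% lower without overlap. No member was called by edgeR, against 0.0693% of all genes. At an unadjusted p under 0.05 there were 2 members, Hlf and Nfil3, against 8.85% of all genes, and DESeq2 called 0, against 0.663%. The log2 change was 0.71 for Hlf (SE 0.23, adjusted p = 0.437) and -0.82 for Nfil3 (SE 0.30, adjusted p = 0.483). It was 1.06 for Dbp (SE 0.77, adjusted p = 0.724), with an interval from -0.60 to 2.73. Bhlhe41 stood near equality at -0.10 (interval -1.25 to 1.05, adjusted p = 0.971). The median was 0.59 over the members and -0.01 over all genes.

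The comparison of wt_HFD with wt_normal asks what the diet goes with in livers that have p53. The groups did not overlap for Bhlhe40 and Bhlhe41, both higher on HFD, as were 11.2% of all genes, with 10.7% lower. In edgeR's test 0 members were called, against 0.693% of all genes. At an unadjusted p under 0.05 there were 3, Dbp, Bhlhe40 and Bhlhe41, against 17% of all genes, and DESeq2 called those 3, against 4.7%. The log2 change was 1.71 for Bhlhe40 (SE 0.43, adjusted p = 0.0894), 2.16 for Bhlhe41 (SE 0.57, adjusted p = 0.101) and 3.06 for Dbp (SE 0.84, adjusted p = 0.109). Hlf had 0.05 (interval -0.45 to 0.55). With 1 library left out, edgeR called Dbp and Bhlhe41 in 1 of 12 fits each and Bhlhe40 in 0. Without wt_HFD replicate 3 the change of Dbp was 3.58 and was called (adjusted p = 0.0396), and without wt_normal replicate 2 that of Bhlhe41 was 3.29 and was called (adjusted p = 0.0499).

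Between ko_HFD and ko_normal all 8 members overlapped. EdgeR called 0 members and 0% of all genes, 0 members had an unadjusted p under 0.05, where 5.63% of all genes did, and DESeq2 called 0 members and 0.269% of all genes. The log2 changes ran from -0.82 for Bhlhe41 (SE 0.53, adjusted p = 0.888) to 0.60 for Usp2 (SE 0.72). The interval of Dbp reached from -1.99 to 1.30, so a sizeable difference of either sign was not excluded, whereas that of Hlf ran only from -0.53 to 0.46. Of all genes, 5.45% were higher and 5.96% lower without overlap.

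**Figure D2:**
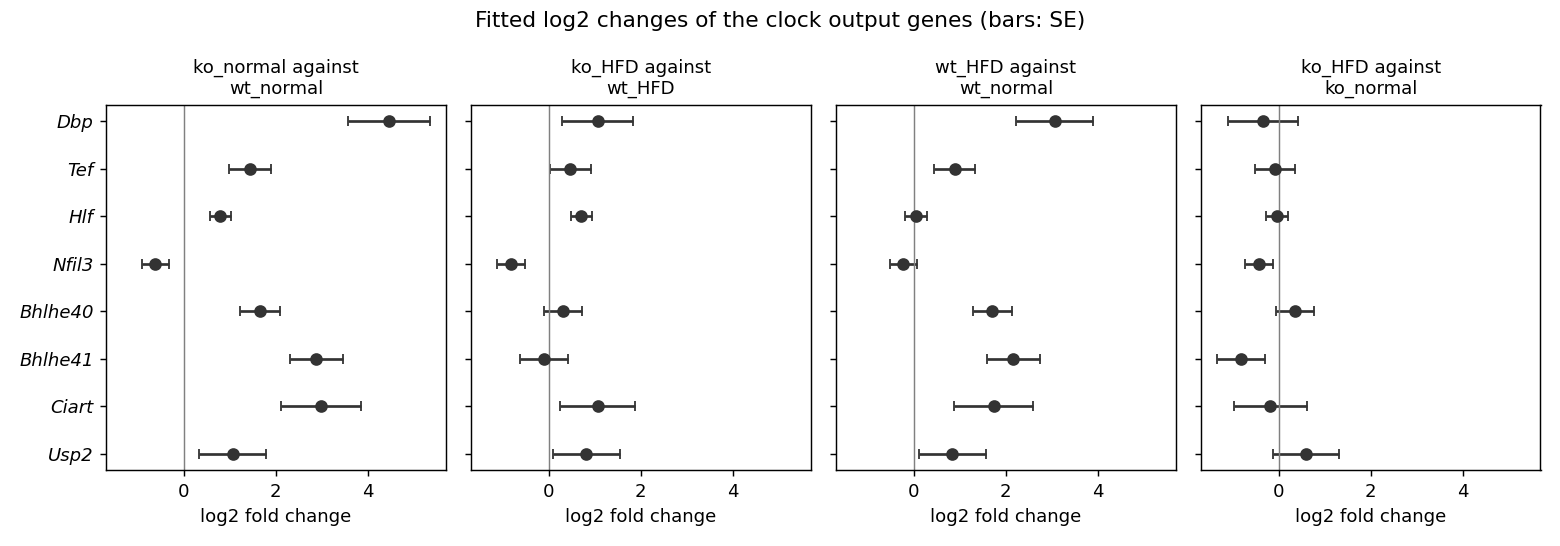
Fitted log2 fold change of each of the 8 genes in the 4 comparisons of groups, with bars of 1 SE from edgeR's fit to 12 libraries. Dbp stands at 4.46 in ko_normal against wt_normal and at 3.06 in wt_HFD against wt_normal, and both contrasts share the wt_normal libraries; between ko_HFD and ko_normal the points lie around 0.

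Both of the larger sets of differences were measured against the same 3 wt_normal libraries, so they are not independent of each other. The difference between the ko effects, HFD minus normal diet, was tested as an interaction in the same fit. It was negative for all 8 members and for 7118 of all 14433 genes, with a median of -1.16 against 0.01 over all genes. For Nfil3, lower in ko on both diets, a negative value is a wider difference between genotypes on HFD. EdgeR called 0 members and 0% of all genes. At an unadjusted p under 0.05 there were 3 members, against 5.02% of all genes, and DESeq2 called 0, against 0.138%. These 3 were Bhlhe41 at -2.98 (SE 0.78, adjusted p = 0.771), Dbp at -3.40 (SE 1.12, adjusted p = 0.913) and Bhlhe40 at -1.35 (SE 0.59, adjusted p = 0.97). The ko effects were therefore not shown to differ between the diets.

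Averaged over both diets, Dbp and Hlf rose in ko livers. Dbp was 6.79-fold higher (log2 change 2.76, SE 0.58, adjusted p = 0.0419), and Hlf was 1.69-fold higher (0.75, SE 0.16, adjusted p = 0.0478). They were 2 of 8 members called higher by edgeR, where 0.79% of all genes were called higher. At an unadjusted p under 0.05 there were 7 members, all but Usp2, against 18.7% of all genes, and DESeq2 called 6, all but Ciart and Usp2, against 6%. Nfil3 had -0.72 (SE 0.21, adjusted p = 0.111) and Bhlhe41 1.39 (SE 0.39, adjusted p = 0.0971). With 6 wt set against 6 ko libraries, every member overlapped between genotypes, where 0.901% of all genes were higher and 0.845% lower without overlap.

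Both calls depended on single libraries and on the scaling. With library totals in place of TMM factors both ended (adjusted p = 0.0559 for Dbp and 0.069 for Hlf), while with RLE size factors, another scaling, both held. The call of Dbp held without wt_normal replicate 2, wt_HFD replicate 1 or wt_HFD replicate 3, and ended when any of the other 9 libraries was left out, with adjusted p up to 0.0926. That of Hlf held only without wt_HFD replicate 1 (adjusted p = 0.00875) and ended without any of the other 11, with adjusted p up to 0.117. Without the 2 libraries highest in mitochondrial counts, both ended. The log2 change of Dbp remained positive in each of these fits. Bhlhe41 was called in this comparison without wt_normal replicate 2 (1.95, adjusted p = 0.0308).

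Averaged over both genotypes, HFD went with no called member in edgeR, where 1.04% of all genes were called. At an unadjusted p under 0.05 there were 2 members, Bhlhe40 at 1.03 (SE 0.30, adjusted p = 0.108) and Dbp at 1.36 (SE 0.55, adjusted p = 0.229), against 17.6% of all genes, and DESeq2 called 1, Bhlhe40, against 5.63%. Hlf was at 0.01 (interval -0.35 to 0.36), the narrowest interval of the 8.

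The members differed from each other in how widely they spread. The SD of log2 CPM over the 12 libraries was 2.33 for Dbp, higher than in 99.75% of all genes tested, where it ranked 36 of 14433. It was 1.84 for Ciart, 1.37 for Bhlhe41, 1.23 for Usp2, 0.97 for Bhlhe40, 0.85 for Tef, 0.56 for Nfil3 and 0.48 for Hlf, and the median gene had 0.39. How much of this spread lay inside the groups differed between members. The SD within groups was 1.29 for Dbp and 0.77 for Bhlhe41, well below their values over all libraries. It was 1.44 for Ciart and 1.18 for Usp2, against a median of 0.35 over all genes, while that of Hlf was 0.30. For Usp2 the SD within groups was close to that over all libraries, and Hlf had the lowest of both values among the members.

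Dbp levels left a gap between 13.5 CPM, the highest of 4 libraries, and 59.1 CPM, the lowest of the other 8, so its correlations are given within those 8. Pearson's r of log2 CPM with Dbp was -0.71 for Nfil3, 0.71 for Ciart, 0.68 for Hlf, 0.50 for Bhlhe41, 0.49 for Tef, 0.02 for Usp2 and -0.30 for Bhlhe40, as descriptions that share library and depth. The 4 libraries low in Dbp were all lower in Tef than the other 8, at 128 CPM or less against 147 CPM or more, as the plot of Dbp against 3 other genes shows.

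Among the 21 pairs of the other 7 members, correlations of log2 CPM over 12 libraries were positive in 15 and negative in 6, each of the 6 with Nfil3. P-values were taken from 100000 permutations of the libraries, made freely across the 4 groups, so differences between groups enter them. After Benjamini-Hochberg adjustment over all 28 pairs of members, r passed 0.05 in 14 of the 21 and both r and rho in 9. The share of all gene pairs that would pass was not computed, so these counts do not set the members apart from other genes. Tef and Usp2 had r = 0.90 (adjusted permutation p = 0.0014) and rho = 0.87 (adjusted permutation p = 0.00241), and r was 0.90 without the 2 libraries farthest from the median of Tef. Ciart and Usp2 had r = 0.87 (adjusted permutation p = 0.00261), rho = 0.84 (adjusted permutation p = 0.00464) and 0.74 without the 2 farthest. Nfil3 and Ciart had r = -0.80 (adjusted permutation p = 0.00465), rho = -0.92 (adjusted permutation p = 0.00154) and -0.76 without them. After each group's mean was taken out, r was 0.94 for Tef and Usp2, 0.84 for Ciart and Usp2 and -0.63 for Nfil3 and Ciart, so these relations were present among replicates as well. For Bhlhe40 with Tef r was 0.19 after the group means were taken out, and the pooled r went from 0.66 (adjusted permutation p = 0.031; rho = 0.47, adjusted permutation p = 0.148) to 0.15 without wt_normal replicates 1 and 3, which it rests on. Hlf and Bhlhe40 had r = 0.32 (adjusted permutation p = 0.305; rho = 0.33, adjusted permutation p = 0.305), and -0.49 after the group means were taken out. For Hlf the pooled r of 0.64 with both Tef and Ciart went to 0.23 and 0.21 in the same way.

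**Figure D3:**
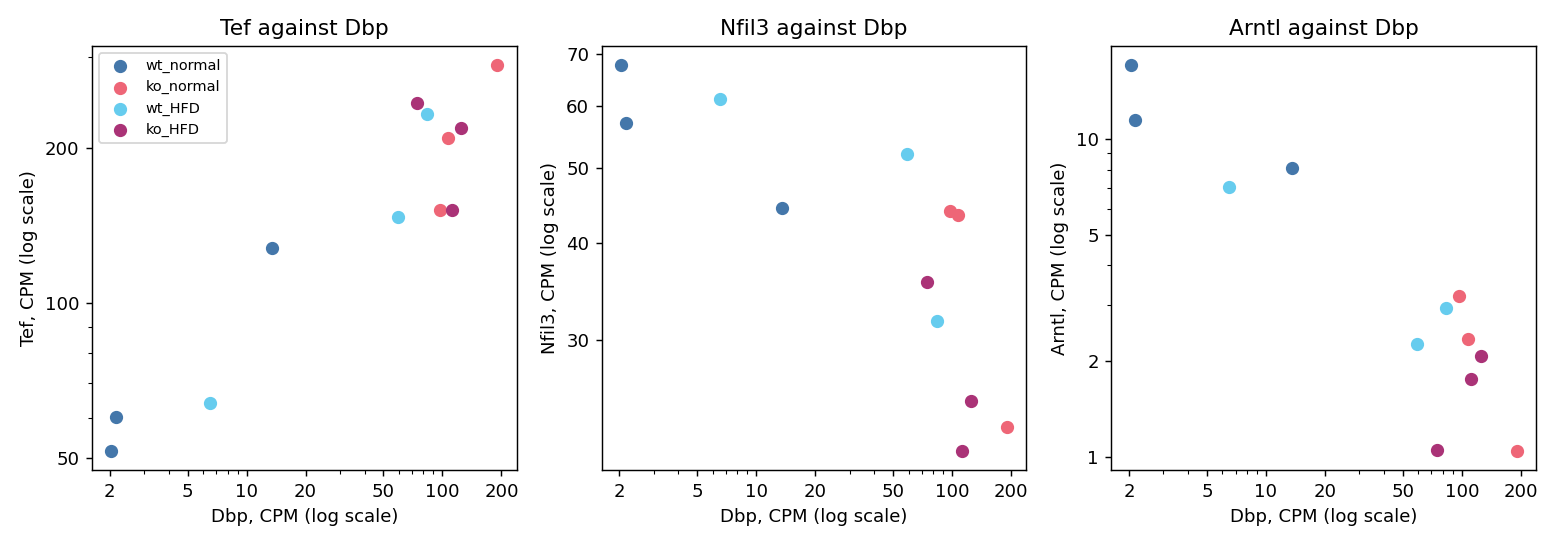
Tef, Nfil3 and Arntl against Dbp, each in CPM on log axes, with 1 point per library coloured by group. The 3 wt_normal libraries and wt_HFD replicate 3 form the low end of Dbp, at 13.5 CPM or less, with Tef at 128 CPM or less and Arntl at 7.08 CPM or more, and the other 8 libraries lie at 59.1 CPM or more of Dbp.

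Across 11544 genes with a mean of at least 1 CPM, those most like each member were ranked by Pearson's r over the 12 libraries, as a description. For Tef they were Per3, a period gene of the clock (r = 0.957), Slc5a6, a vitamin transporter (0.949), and Guf1, a mitochondrial translation factor (0.935). For Dbp the first were Slc5a6 (0.933), Per3 (0.931) and Rgs16, a regulator of G protein signalling (0.920), over libraries that include the gap described above. Guf1 was also nearest to Usp2 (0.942), followed by the potassium channel gene Kcnk5 (0.933) and the uridine phosphorylase gene Upp2 (0.901). Ciart was followed by Lipt2, a lipoyl transferase (0.946), Upp2 (0.939) and Mpv17l (0.931). The genes nearest to Hlf were others: Nat2, an N-acetyltransferase (0.935), the mitochondrial thioredoxin gene Txn2 (0.929) and Slc25a10, the mitochondrial dicarboxylate carrier (0.923). Nfil3 was followed by Strbp (0.916), Msrb3 (0.916) and Gfra1 (0.908), Bhlhe40 by Gprin3 (0.919), Alg8 (0.911) and Sntg2 (0.895), and Bhlhe41 by Hmgn2 (0.915) and Zfp9 (0.851). Per3 and Upp2 each stood among the first 3 of a pair of members, as did Slc5a6 and Guf1.

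The loop upstream of the output genes was read from 12 core clock genes, all tested. On the normal diet edgeR called 0 of them, against 0.208% of all genes, and 8 had an unadjusted p under 0.05, against 15.1%. The groups did not overlap for 6, with 4 higher and 2 lower in ko_normal, where 11.4% of all genes were higher and 11.4% lower. Arntl, the BMAL1 gene, was at 11.5, 8.09 and 17.1 CPM in wt_normal and at 1.04, 3.19 and 2.34 CPM in ko_normal (log2 change -2.47, SE 0.50, adjusted p = 0.0625). Per2, a period gene, had 8.93, 13.5 and 4.96 CPM against 39.0, 27.6 and 34.5 CPM (1.88, SE 0.37, adjusted p = 0.0606). Both sets of values were far apart, with Arntl high where Dbp was low. In wt_HFD Arntl was at 2.95, 2.26 and 7.08 CPM and in ko_HFD at 1.05, 2.07 and 1.75 CPM, so that wt_HFD replicate 3, low in Dbp, was again the highest in Arntl outside wt_normal.

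Averaged over both diets, 2 of the 12 core clock genes were called in ko against wt, against 1.16% of all genes. Arntl fell by 1.90 on the log2 scale (SE 0.35, adjusted p = 0.0291) and Per2 rose by 1.42 (SE 0.26, adjusted p = 0.0249). Nr1d1, which encodes the repressor REV-ERB alpha, had 1.39 (SE 0.33, adjusted p = 0.0619). On HFD no core clock gene was called between genotypes, with Per2 at 0.96 (SE 0.36, adjusted p = 0.485) and Arntl at -1.33 (SE 0.50, adjusted p = 0.492), and 2 of 12 had an unadjusted p under 0.05, against 8.85% of all genes. Between wt_HFD and wt_normal the count was 5 of 12, against 17% of all genes, again with 0 called.

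**Figure D4:**
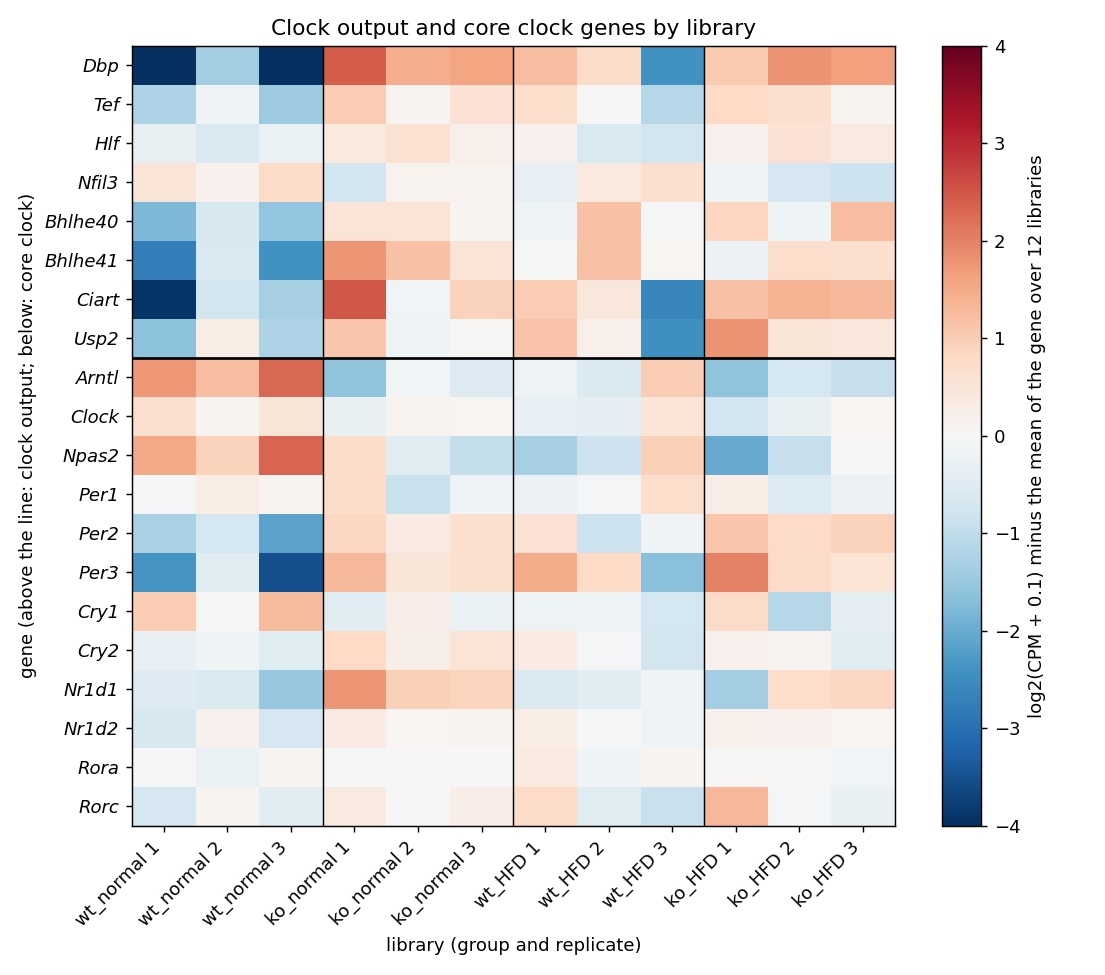
Level of the 8 clock output genes (above the line) and 12 core clock genes (below it) in each library, as log2(CPM + 0.1) minus the gene's mean over 12 libraries, with colours limited at 4 in either direction. Library wt_HFD replicate 3 is low in Dbp, Ciart, Usp2 and Per3 and high in Arntl, as are wt_normal replicates 1 and 3.

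Of 16 other transcripts known to be rhythmic in liver or to be driven by PAR bZIP factors, 1 was called in any of these comparisons. Of all genes, 0% to 1.16% were called, depending on the comparison. Cyp2a5, a cytochrome P450 gene whose expression depends on PAR bZIP factors in mouse, rose in ko livers averaged over both diets (log2 change 1.79, SE 0.25, adjusted p = 0.00557). It was at 141.5, 206 and 219.5 CPM in wt_normal, 682, 377 and 446 CPM in ko_normal, 157, 107 and 69.9 CPM in wt_HFD and 708.5, 458.5 and 346 CPM in ko_HFD. All 6 ko libraries lay above all 6 wt libraries, as they did for 0.901% of all genes. Within wt_HFD and within ko_normal the replicates had the same order as in Dbp, but within wt_normal and within ko_HFD they did not. Library wt_normal replicate 3, lowest in Dbp, was the highest wt library in Cyp2a5. Library ko_HFD replicate 1, the lowest ko library in Dbp, was the highest ko library in Cyp2a5. Cyp2a5 has near-identical copies and its counts are uncertain for that reason. Within a diet its log2 change was 1.41 on the normal diet (SE 0.34, adjusted p = 0.0994) and 2.18 on HFD (SE 0.35, adjusted p = 0.0506). The next smallest p between genotypes was that of Gys2, liver glycogen synthase, on the normal diet (1.16, SE 0.29, adjusted p = 0.102) and that of Fgf21, a hepatic hormone, on HFD (-2.95, SE 1.03, adjusted p = 0.455). The median log2 change of the 16 was -0.01 on the normal diet and 0.44 on HFD between genotypes, where it was 1.55 and 0.59 for the 8 members.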

How the data were processed

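The deposited files hold raw read counts, whole numbers by gene, and were used unchanged. CASAVA 1.8, Bowtie 0.12.2 and the builds mm8 and mm9 are named in the submitters' processing notes, with no role given for either build. The sources used here do not state the counting tool, annotation or strand setting. Groups and replicate numbers came from the labels. Of 52636 identifiers, 52403 matched a symbol.

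Low counts were removed with filterByExpr (14433 genes left). In edgeR 4.0.16 under R 4.3.3, TMM scaling and 1 quasi-likelihood fit of the 4 groups to 12 libraries (8 residual and 4.66 prior degrees of freedom) gave 7 two-sided comparisons. Calls required p under 0.05 after Benjamini-Hochberg adjustment across all tested genes. Correlations used log2 CPM with a prior count of 2. The fit was tested on simulated data. Alternatives were the Wald test of DESeq2 1.42.0, other scalings, filters and fits, and each library left out. Replicate pairs within a group differed by a chi-square per degree of freedom of 39.5 to 198.5, and about 1 marks counting error alone, so no library was a copy.

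The members and lists were chosen with earlier results of these data known. The named genes were all members, the called core clock and rhythmic genes and those with the smallest p, and the 3 genes most like each member, of which 1 is not reported here. Values of Sphk2 and of the libraries standing apart were chosen after they were seen. Gene positions are those of GENCODE M21, not the authors' coordinates. The lowest counts of a member in a library were 8 for Ciart and 9 for Bhlhe41.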

Additional observations from a re-analysis of the deposited data

How the results depend on the processing

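Of 1096 alternative values of the members' log2 changes, 1003 kept direction and side of the threshold, 36 passed it newly, 25 lost a call and 32 changed sign. Only 2 of the 56 main values were calls, so most of the 1003 were uncalled values that stayed uncalled. The 25 lost calls were all of these 2, Dbp and Hlf in averaged ko against wt. Of 19 alternatives each, Dbp was called in 8 and Hlf in 5. The cause of these shifts was not tested, other than that fits with fewer libraries have fewer degrees of freedom. Counts of genes called in ko_normal against wt_normal moved from 30 to 18 with library totals only, 648 with no filter, 96 with only the groups compared, 529 with DESeq2 and 13 without the 2 libraries highest in mitochondrial counts, an alternative chosen after seeing the data. In ko_HFD against wt_HFD they moved from 10 to 16, 51, 6, 95 and 4 in that order. With no filter, only the groups compared and DESeq2 they moved from 100 to 696, 34 and 660 in wt_HFD against wt_normal, and from 0 to 21, 2 and 37 in ko_HFD against ko_normal. With no filter and DESeq2 the difference between the ko effects moved from 0 to 13 and 19. With no filter, DESeq2 and without the 2 libraries, averaged ko against wt moved from 168 to 644, 860 and 49 and averaged HFD against normal diet from 150 to 489, 807 and 40. Leaving out 1 library each gave, in the order of these 7 comparisons, 3 to 84, 2 to 14, 9 to 131, 0 to 6, 0 to 1, 45 to 254 and 45 to 272.

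Members called in ko_normal against wt_normal moved from 0 to 6 with no filter, where 648 of 26294 genes were called. They moved to 1 with only the groups compared (Dbp, adjusted p = 0.045), where 96 of 13809 genes were called. With DESeq2 there were 5, against 3.69% of all genes. In wt_HFD against wt_normal they moved from 0 to 3 with no filter (696 of 26294 genes) and 3 with DESeq2 (4.7% of all genes). In averaged HFD against normal diet they moved from 0 to 1 (489 of 26294 genes) and 1 (5.63% of all genes). In averaged ko against wt they moved from 2 to 0 with library totals only (126 of 14433 genes) and 7 with no filter (644 of 26294 genes). They moved to 6 with DESeq2 (6% of all genes) and 0 without the 2 libraries (49 of 14800 genes). With 1 library left out they ran from 0 to 1, 0 to 1 and 0 to 2 in ko_normal against wt_normal, wt_HFD against wt_normal and averaged ko against wt, and stayed 0 elsewhere. Pairs of members with an absolute r over 0.638 moved from 21 of 28 to 9 for deviations from the group means and 13 without the 2 farthest libraries.

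Deviations from the group means had r from -0.209 to 0.332 between same-numbered libraries. Differently numbered libraries were not compared, so this does not settle whether the numbers pair the libraries. With the replicate block, members called moved from 0 to 1 in ko_normal against wt_normal (Bhlhe41, 3.11, adjusted p = 0.042), where 45 of 14433 genes were called. In averaged ko against wt they moved from 2 to 1, as Hlf lost its call (adjusted p = 0.0619), where 157 of 14433 genes were called. Under the block Usp2 turned to 0.0936 in the difference between the ko effects and Hlf to -0.00115 in averaged HFD against normal diet.

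The other sign changes were all of uncalled values. With library totals only, Hlf was at -0.124 in wt_HFD against wt_normal, 0.0735 in the difference between the ko effects and -0.0877 in averaged HFD against normal diet. Without the 2 libraries, Tef was at 0.145 and Ciart at 0.763 in ko_HFD against ko_normal, Usp2 at 0.471 in the difference and Hlf at -0.0506 in averaged HFD against normal diet. With 1 library left out each, Bhlhe40 ran from -0.0044 to 0.867 and Bhlhe41 from -0.300 to 0.366 in ko_HFD against wt_HFD, and Hlf from -0.292 to 0.215 and Nfil3 from -0.429 to 0.0106 in wt_HFD against wt_normal. In ko_HFD against ko_normal, Dbp ran from -0.520 to 0.0209, Tef from -0.278 to 0.185, Hlf from -0.150 to 0.0864, Ciart from -0.601 to 0.809 and Usp2 from -0.016 to 1.10. In the difference, Hlf ran from -0.248 to 0.259 and Usp2 from -1.09 to 0.574, and in averaged HFD against normal diet Hlf ran from -0.162 to 0.0911.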
